A study of Mus musculus with 12 samples.

Results

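MGP_C57BL6NJ_G0025584 is 1 gene of the 42554 rows in the count table of a mouse liver study, and 1 of the 13843 rows with enough counts to be fitted. It was chosen by its ID, after earlier results of these data were known, as an abundant gene with a strong fall on a high-fat diet (HFD) in NLRP6 knockout liver and no such fall in wild type. That choice used its counts in all 4 groups, so its levels and group differences are given as a description with standard deviations and standard errors, and with no test. The choice set no numeric threshold. The counts showed a much lower level on HFD in knockout liver. In wild-type liver the mean was also lower on HFD, but far less so, with a log2 fold change of -0.56 (SE 0.27). The libraries of the 2 wild-type groups overlapped on the main scale, and 24.2% of all genes were at least as much lower there. Whether wild type had a fall of its own was not tested.

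The study sequenced whole-liver RNA from wild-type mice (WT) and NLRP6 knockout mice (KO), 3 libraries in each of 4 groups. All mice ate a normal diet (ND) up to 8 weeks of age. The groups WT ND and KO ND then stayed on ND, and the groups WT HFD and KO HFD were fed HFD for 12 weeks. The stated aim concerns NLRP6 and lipid droplets in hepatocytes. The labels do not say how the knockout allele was made or whether it was whole-body, and do not give the background strain, the sex or whether any RNA was pooled.

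NLRP6 is a NOD-like receptor that can take part in inflammasome assembly and is best known from the intestinal epithelium. Liver RNA is dominated by transcripts of secreted plasma proteins and metabolic enzymes made by hepatocytes, and a few of these take up a large part of all reads. A long high-fat diet loads hepatocytes with lipid and shifts the transcripts of fatty acid, sterol and carbohydrate metabolism. The ID of MGP_C57BL6NJ_G0025584 belongs to a C57BL/6NJ strain annotation and was not paired with a symbol, a position or a sequence in the tables used here (0 of the 42554 row names matched), so what the gene encodes is not stated. Its reads came from bulk tissue, in which fewer cells that express a gene and less RNA per cell cannot be told apart. Since no ID had a symbol, liver markers and markers of other cell types were not analysed here.

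Total counts were 13339879 to 15933886 per library. As a check of the genotype labels, all rows were searched for 0 counts in every KO library and a set minimum in every WT library. The search found 1 row, another gene, with 2019 to 2981 counts in each of the 6 WT libraries and 0 in each of the 6 KO libraries. It was picked for that pattern and was not identified, and it does not bear on the diet labels. The labels number the replicates but do not say that each is its own animal, and the spread between them may be partly technical. KO HFD replicate 1 stood apart from the other libraries of its group: the chi-square per degree of freedom was 165 against replicate 2 and 93.6 against replicate 3, and 23.1 between replicates 2 and 3. The main values that rest on KO HFD are therefore also given without it, an alternative chosen after seeing the data.

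On ND the gene was among the most counted of the liver. WT ND replicates 1, 2 and 3 had 198222, 175476 and 108533 counts of MGP_C57BL6NJ_G0025584. These were 1.31%, 1.23% and 0.771% of all counts of the library. The 95% Wilson intervals of these shares were 1.30% to 1.32%, 1.22% to 1.23% and 0.767% to 0.776%, and they cover counting error only. WT ND replicate 3 was thus far below its 2 companions, by much more than counting error.

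KO ND replicates 1, 2 and 3 had 218199, 195244 and 251676 counts, or 1.37%, 1.37% and 1.69% of all counts. All 3 were above all 3 WT ND libraries. Ranked by counts, the gene was number 3 of all rows in every KO ND library and in WT ND replicates 1 and 2. In WT ND replicate 3 it was number 12. Counts favour long transcripts, and no gene lengths were given to correct for this.

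On HFD the gene was lower in every library of both genotypes by share of counts. WT HFD replicates 1, 2 and 3 had 93307, 79631 and 83266 counts, or 0.678%, 0.547% and 0.607% of all counts. KO HFD replicates 1, 2 and 3 had 29064, 14340 and 18845 counts, or 0.218%, 0.107% and 0.128%. The 3 KO HFD libraries were the lowest of the 12. The gene was number 14 or 15 by counts in WT HFD, and number 45, 103 and 87 in KO HFD replicates 1, 2 and 3. It was therefore still well covered where it was lowest, and counting error was a small part of the spread: the Wilson interval in KO HFD replicate 2 was 0.105% to 0.108%.

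**Figure D1:**
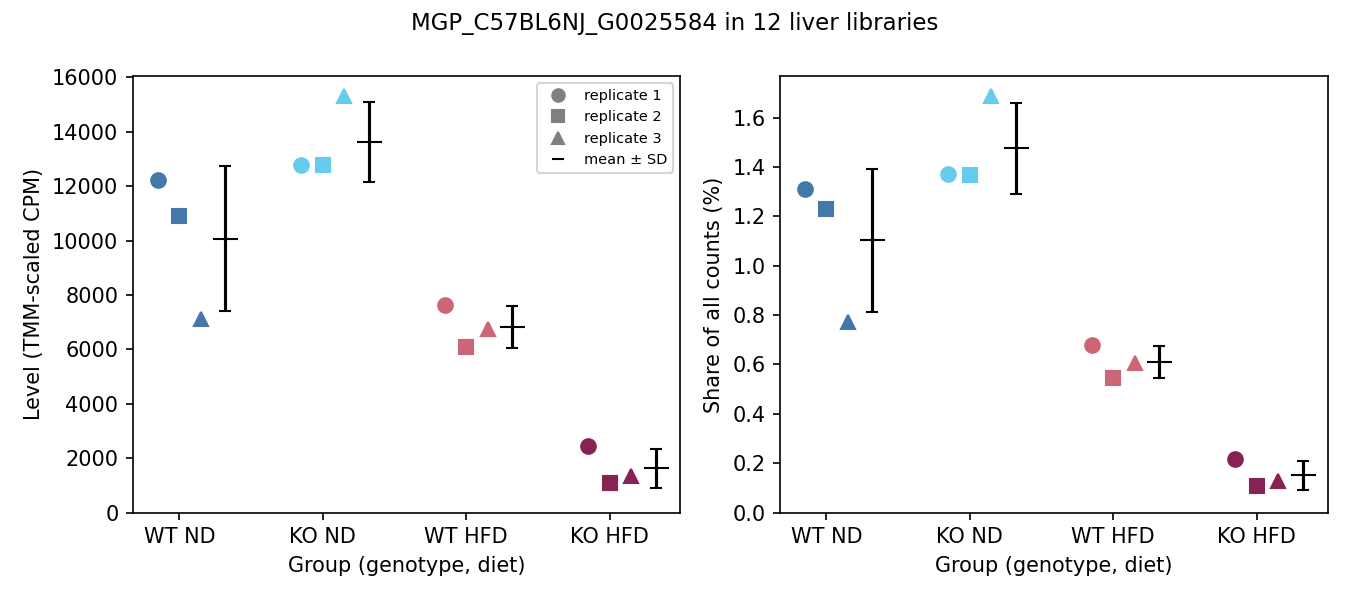
CPM with TMM scaling (left axis, from 0) and share of all counts in percent (right axis, from 0) of the gene in each of the 12 libraries, with a point for each replicate and a bar for the group mean ± SD. The KO HFD libraries lie between 1080 and 2452 CPM, below all others, and the KO ND libraries lie between 12769 and 15330 CPM, above all others.

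Libraries were next put on a common scale as CPM, counts scaled to a common library size, by factors from TMM (the trimmed mean of M-values), which correct for a few very abundant genes taking up more of one library than of another. The factors were 1.07 to 1.13 in the ND libraries and 0.888 to 0.988 in the HFD libraries, so this scaling lowers the gene's ND values and raises its HFD values relative to plain shares. With this scaling KO ND had the highest mean, 13629 ± 1473 CPM (SD, n = 3, as for the other groups). WT ND followed with 10074 ± 2654 CPM, then WT HFD with 6822 ± 777 CPM, and the KO HFD mean was 1628 ± 727 CPM. Without KO HFD replicate 1 the KO HFD mean was 1216 CPM. That was also the order of the groups by share of counts, with means of 1.48%, 1.10%, 0.610% and 0.151%.

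Neighbouring groups in this order were not equally well separated. KO ND lay above WT ND by a narrow margin, the lowest KO ND library at 12769 CPM and the highest WT ND library at 12226 CPM, a ratio of 1.04. WT ND and WT HFD overlapped, because WT ND replicate 3 at 7108 CPM was below WT HFD replicate 1 at 7637 CPM. By share of counts they did not overlap, with 0.771% in the lowest WT ND library and 0.678% in the highest WT HFD library. WT HFD and KO HFD were far apart, the lowest WT HFD library at 6090 CPM and the highest KO HFD library at 2452 CPM, a ratio of 2.48.

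The spread between replicates was widest in KO HFD. The highest library of KO HFD was 2.27-fold above the lowest, against 1.72-fold in WT ND, 1.25-fold in WT HFD and 1.20-fold in KO ND. The standard deviation of log2 CPM was 0.61 in KO HFD, larger than that of 83.9% of all 13843 genes within the same libraries, and 0.23 without replicate 1. In WT ND it was 0.41, larger than that of 79.7% of genes, and in KO ND and WT HFD it was 0.15 and 0.16, larger than that of 41.4% and 36.1%. In KO HFD replicate 1, the highest of its group, the most counted row took 7.54% of all counts, against 4.73% and 4.99% in replicates 2 and 3 and 8.33% to 9.43% in WT HFD. Whether this has a part in the gene's value was not tested.

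The diet difference in KO was the one for which the gene was picked. In KO the gene was 8.37-fold lower on HFD than on ND, a log2 fold change of -3.07 (SE 0.30, n = 3 each, edgeR). All 3 KO HFD libraries were below all 3 KO ND libraries. For scale, 12.1% of the 13843 genes were at least 2-fold lower on HFD in KO and 28.5% had KO HFD libraries all below KO ND libraries. A level at least this far below ND was found for 69 genes, the gene included, or 0.498%. Over the 13843 genes the median log2 fold change was 0.01. Without KO HFD replicate 1 the filter on low counts was applied again and kept 14197 genes. Of these, 51, or 0.359%, were at least as far below ND as the gene. Leaving out 1 library at a time gave log2 fold changes from -3.48, without KO HFD replicate 1, to -2.84, without KO HFD replicate 2.

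In WT the gene was 1.48-fold lower on HFD, a log2 fold change of -0.56 (SE 0.27, n = 3 each, edgeR), with the 2 groups overlapping. A difference of at least 2-fold in this direction was found for 12.3% of genes, 27.6% had WT HFD libraries all below WT ND libraries, and 3345 genes, or 24.2%, were at least as much lower as this one. The WT value was -0.85 with total counts in place of TMM factors, where the median of all genes was itself -0.32. Without WT ND replicate 1 it was -0.40, and without WT ND replicate 3 it was -0.76.

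Between genotypes the difference on HFD was much larger than that on ND, and in the other direction. On HFD the gene was 4.19-fold lower in KO than in WT, a log2 fold change of -2.07 (SE 0.28, n = 3 each, edgeR), with no overlap. For comparison, 2.14% of genes were at least 2-fold lower in KO on HFD, 6.06% had KO HFD libraries all below WT HFD libraries, and 39 genes, or 0.282%, were at least as far below WT. Without KO HFD replicate 1, 66 of the 14197 genes then tested, or 0.465%, were at least as far below WT. Leaving out 1 library gave values from -2.49, without KO HFD replicate 1, to -1.84, without KO HFD replicate 2.

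On ND the gene was 1.35-fold higher in KO, a log2 fold change of 0.44 (SE 0.27, n = 3 each, edgeR). The groups did not overlap, as was the case in this direction for 15.4% of genes. At least 2-fold higher in KO were 2.72% of genes, and 13.5% of genes were at least this far above WT. The size of the ND difference rested on WT ND replicate 3, the low library of its group. Without that library the log2 fold change was 0.23.

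These differences add up to a diet response that was lower in KO than in WT, with a log2 difference of -2.50 (SE 0.39, n = 3 libraries in each of 4 groups, edgeR). Of this, -2.07 lay between the genotypes on HFD, and the remainder came from the higher KO level on ND. The 2 diet contrasts share no library, whereas each genotype contrast uses libraries of both diet contrasts, so the 4 values are not independent of each other. Without KO HFD replicate 1 the difference in diet response was -2.92. Over the other libraries left out in turn it ran from -2.66, without WT ND replicate 1, to -2.28, without KO HFD replicate 2.

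**Figure D2:**
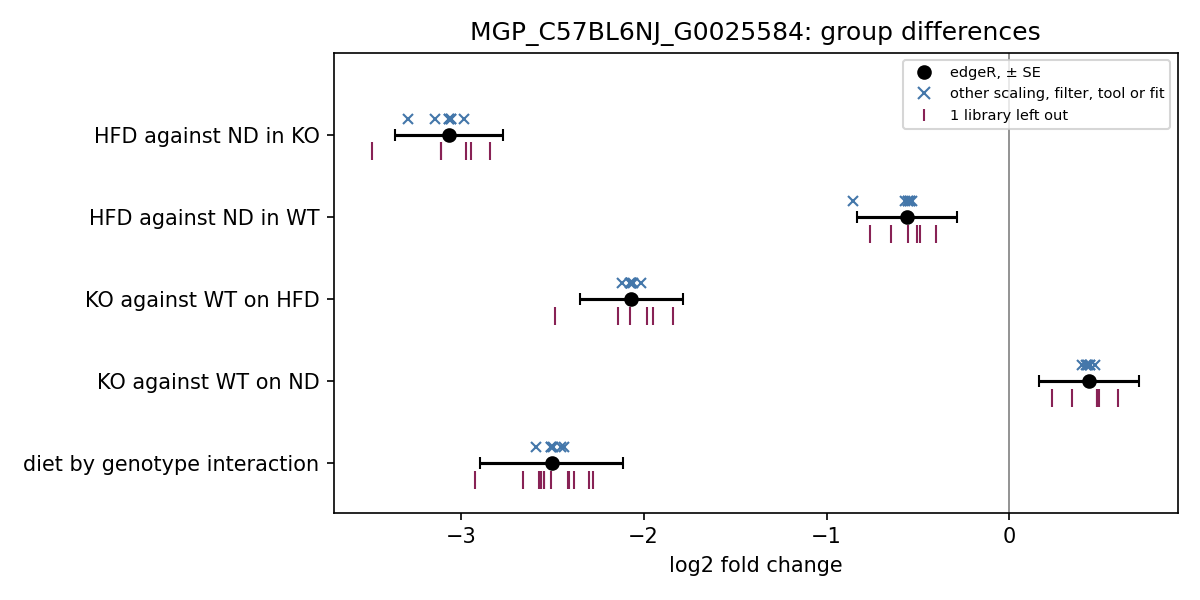
Log2 fold change of the gene (horizontal axis) in each of 5 comparisons, with the edgeR estimate ± SE as a black point, values under other scalings, filters, tools or fits as crosses above it, and values with 1 library left out as bars below it. The diet difference in KO stays at or below -2.84, the diet difference in WT stays between -0.85 and -0.40, and the genotype difference on ND stays above 0.

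In reads, the gene accounted for a sizeable piece of the change in library make-up. From ND to HFD in KO its mean share changed by -1.32 percentage points, the second largest loss of any of the 42554 rows, and this made up 6.57% of all losses summed over rows. In WT its share changed by -0.493 percentage points, the third largest loss, or 2.45% of all losses. Between genotypes on HFD its share in KO differed from that in WT by -0.460 percentage points, the fourth largest deficit and 3.96% of all deficits. Without KO HFD replicate 1 the change in KO was -1.36 percentage points, again the second largest loss and 6.70% of all losses, and the difference on HFD was -0.493 percentage points, the fifth largest deficit and 2.85% of all deficits. On ND its share was 0.372 percentage points higher in KO, the second largest gain. Shares are of a fixed total, so each loss is matched by gains elsewhere, and long transcripts weigh more in them. They use total counts without TMM factors, where the median log2 fold change of all genes on HFD was -0.32 in WT and -0.19 in KO. A rank in percentage points also favours abundant genes, and the gene was picked as abundant.

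The gene was next set beside other abundant genes. There were 116 genes that averaged 1000 CPM or more over the 12 libraries, and the gene averaged 8038 CPM. In KO it had the lowest log2 fold change on HFD of the 116, whose median log2 fold change was 0.31. In WT it was number 19 counted from the lowest, against a median of 0.21. Its diet responses in the 2 genotypes were not the most unequal of the 116: 3 others differed by at least as much, and all 3 were higher in KO. Of the 116, 2 were at least 4-fold lower on HFD in KO. The other of these, with a mean of 3253 CPM, was lower to the same extent in both genotypes, with log2 fold changes of -2.01 in KO and -2.00 in WT. Among all 13843 genes, 324 (2.34%) were at least 4-fold lower on HFD in KO. Of these, 301 were also lower in WT, with a median WT log2 fold change of -2.09 over the 324, and 38 had a WT log2 fold change above that of this gene. The gene was thus on the side of small WT differences among these 324, a place for which it had been picked. Without KO HFD replicate 1, 359 of the 14197 genes then tested were at least 4-fold lower in KO. Of these, 316 were also lower in WT and 76 had a WT log2 fold change above that of the gene. These counts are over more rows than those with all libraries, so they do not compare directly. MGP_C57BL6NJ_G0025584 was still the lowest of the 116 in KO.

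**Figure D3:**
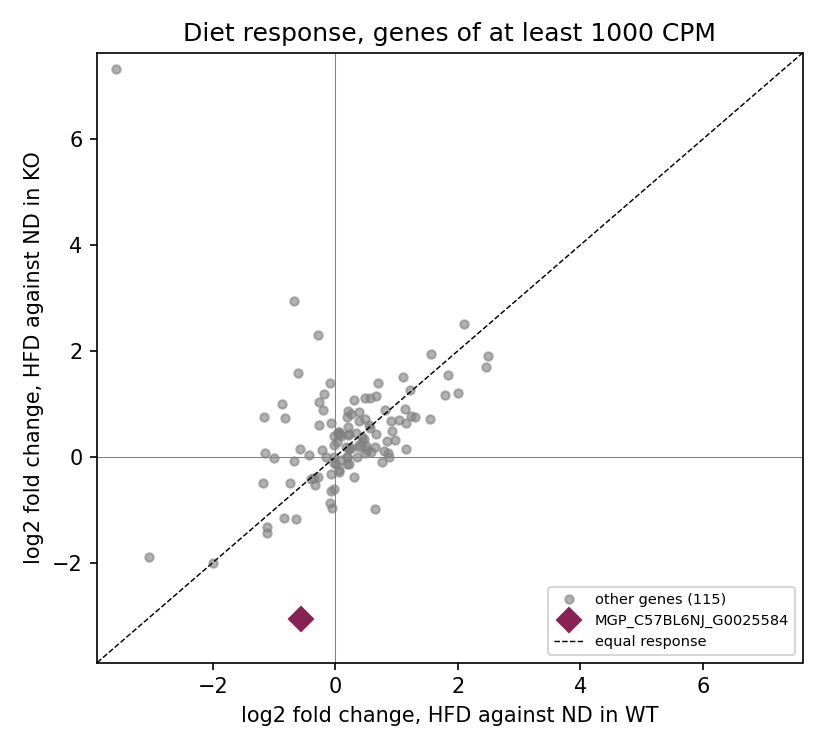
Log2 fold change of HFD against ND in WT (horizontal axis) and in KO (vertical axis) for the 116 genes that averaged 1000 CPM or more, 1 point a gene, with the gene as a diamond and a dashed line of equal response. The diamond is the lowest point on the KO axis, at -3.07, while its WT value of -0.56 lies within the cloud of the other genes.

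Genes with the most similar and the most opposite patterns were found by Pearson's r of log2 CPM over the 12 libraries, among 12452 other rows that averaged 1 CPM or more. The r values describe libraries that fall into 4 groups, of which KO HFD lies far from the rest for this gene, and they have no p. An r of at least 0.9 was found for 26 rows and an r of at most -0.9 for 29 rows. The 26 similar rows were less abundant than the gene, with means of 1.11 to 643 CPM, and none reached 1000 CPM. Their log2 fold changes for HFD in KO ran from -4.23 to -0.50, with a median of -1.35, and 2 of the 26 were at least as far below 0 as the gene. In WT theirs ran from -1.37 to 0.01, with a median of -0.43. Of the 29 opposite rows, 5 had means of at least 1000 CPM, and their median log2 fold change for HFD was 0.99 in KO and 0.19 in WT. These ranges follow from the choice by likeness and are no separate evidence.

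The annotated gene most like it was MGP_C57BL6NJ_G0031899, with Pearson's r = 0.94 and Spearman's rho = 0.94 over 12 libraries. Its mean was highest in KO ND at 68.5 ± 17.8 CPM (SD, n = 3, here and for the groups that follow). It was 44.2 ± 19.7 CPM for WT ND, 29.8 ± 2.98 CPM for WT HFD and 12.1 ± 7.75 CPM for KO HFD. The order of its group means was the same as for MGP_C57BL6NJ_G0025584. KO HFD replicates 1, 2 and 3 held 248, 85 and 125 counts of it, again highest in replicate 1 and lowest in replicate 2. Its log2 fold change on HFD was -2.51 in KO (SE 0.43), or -3.15 without KO HFD replicate 1, and -0.57 in WT (SE 0.41). After each group's mean was taken out, the r between the 2 genes was 0.74, and 0.42 without KO HFD replicate 1. A within-group r of at least 0.7 with the gene was found for 9.60% of the 12452 rows, and one of at most -0.7 for 10.9%, so this value is a common one.

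The 2 annotated genes most opposite to it had their highest means in KO HFD, where it had its lowest. MGP_C57BL6NJ_G0019173 (r = -0.97, rho = -0.82) had 45952, 72163 and 67704 counts in KO HFD replicates 1, 2 and 3 and averaged 4723 ± 788 CPM there (SD, n = 3, as below). The means of the other groups were 3276 ± 106 CPM for WT HFD, 2882 ± 393 CPM for WT ND and 2792 ± 175 CPM for KO ND. Its log2 fold change on HFD was 0.76 in KO (SE 0.16), or 0.89 without KO HFD replicate 1, and 0.18 in WT (SE 0.16). Within groups its r with MGP_C57BL6NJ_G0025584 was -0.89, and -0.76 without KO HFD replicate 1. For scale, 4.85% of the 12452 rows had a within-group r of at most -0.8. Without that library 4.23% had one of at most -0.7. MGP_C57BL6NJ_G0021665 (r = -0.96, rho = -0.86) averaged 572 ± 153 CPM in KO HFD, and the other means were 269 ± 42.2 CPM for WT HFD, 245 ± 40.2 CPM for WT ND and 197 ± 33.2 CPM for KO ND. KO HFD replicates 1, 2 and 3 held 4718, 9071 and 8857 counts of it, lowest in replicate 1, where MGP_C57BL6NJ_G0025584 was highest. Its within-group r was -0.71, and -0.37 without KO HFD replicate 1.

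KO HFD replicate 1 was the least extreme library of its group for all 4 genes. Without it 31 rows had an r of at least 0.9, 23 of them among the 26 above, and 58 had an r of at most -0.9, 25 of them among the 29 above. MGP_C57BL6NJ_G0031899 was then number 2 among annotated genes in likeness, with r = 0.95, and MGP_C57BL6NJ_G0019173 and MGP_C57BL6NJ_G0021665 were number 2 and number 9 in opposite likeness. With total counts in place of TMM factors, 35 rows had an r of at least 0.9, 22 of them among the 26, but of the 21 rows with an r of at most -0.9 only 8 were among the 29. MGP_C57BL6NJ_G0031899 was then number 2 with r = 0.95, whereas MGP_C57BL6NJ_G0019173 dropped to number 94 with r = -0.83 and MGP_C57BL6NJ_G0021665 to number 22 with r = -0.90.

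**Figure D4:**
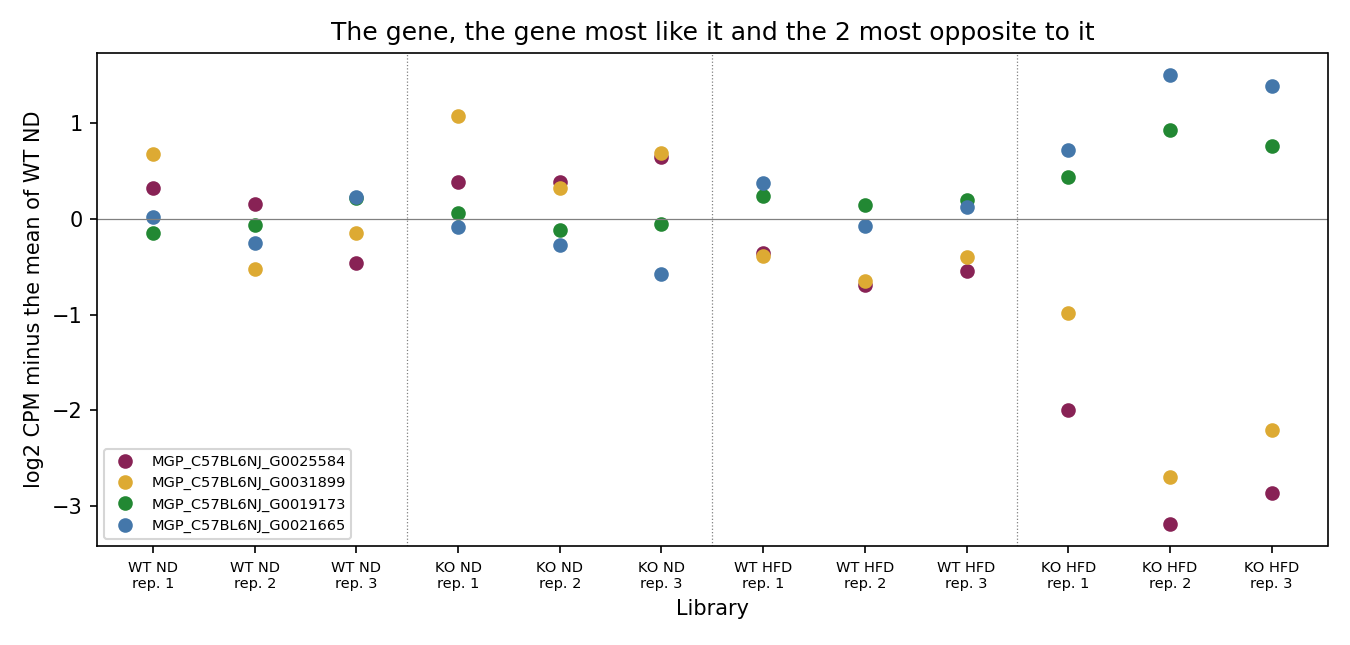
Log2 CPM in each of the 12 libraries (horizontal axis, grouped) minus the mean of the 3 WT ND libraries (vertical axis) for the gene, the gene most like it and the 2 most opposite to it, 1 point a library and gene. In KO HFD the gene and MGP_C57BL6NJ_G0031899 lie below the other libraries and the 2 opposite genes above them, and replicate 1 is nearest to 0 for all 4.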

How the data were processed

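Liver RNA was extracted with Trizol from frozen tissue, and libraries were made with an NEBNext Ultra RNA kit, per the labels' protocols. The kit does not mark strand, so reads of overlapping antisense genes cannot be told apart. The authors deposited raw read counts per gene for 12 libraries. HISAT2 2.0.5, the counter featureCounts 1.5.0-p3 and the build mm39 are named in the submitters' processing notes. The rows are 41096 C57BL/6NJ strain IDs and 1458 unannotated loci, which leaves the build uncertain, and no coordinates are printed. No source used here states the rule for reads that map to several genes, so the level is uncertain if the gene has close copies.

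Libraries were grouped by genotype and diet in the labels. Rows passing filterByExpr (13843, at least 99.89% of counts in each library) were fitted with edgeR 4.0.16 (R 4.3.3; TMM, quasi-likelihood, robust) with 4 group means over the 12 libraries. Log CPM used a prior count of 2. The gene, the comparisons and the rule for similar genes were chosen with earlier results of these data known. That rule names the annotated gene of highest r and the 2 of lowest r. Pathway and cell type lists were not used because no ID had a symbol. Alternatives were other scalings, DESeq2 1.42.0, no filter, the compared groups alone, a replicate block and leaving out each library.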

Additional observations from a re-analysis of the deposited data

How the results depend on the processing

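Of the alternative values of the 5 log2 fold changes, 69 moved by less than the replicate spread, 1 moved by more and none changed sign. The 1 was the difference in diet response, -2.92 without KO HFD replicate 1, and leaving out any 1 library gave -2.92 to -2.28. The replicate spread was the pooled SD of log2 CPM in the groups compared, all libraries included. KO HFD replicate 1 widens it: the SD of KO HFD was 0.61 with it and 0.23 without it. The limit is therefore lenient for leaving out that library, which gave -3.48 for HFD in KO and -2.49 for KO against WT on HFD. Across other scalings, DESeq2, no filter, the compared groups alone and the replicate block, the value ran from -3.29 to -2.98 for HFD in KO, -0.85 to -0.53 for HFD in WT, -2.12 to -2.02 for KO against WT on HFD, 0.40 to 0.47 on ND and -2.59 to -2.44 for the difference in diet response, which has no fit of 2 groups alone. With the replicate block they were -3.14, -0.55, -2.12, 0.47 and -2.59. With this block the SE of all 5 were smaller, for example 0.34 in place of 0.39 for the difference in diet response. Of 18 same-numbered pairs, 5 had a correlation of deviations over 0.1 (range -0.02 to 0.25). Pairs with different numbers were not compared, so whether the replicate numbers pair the samples or mark a batch was not tested. All 16 alternative group means stayed within 1 SD.

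The shares of all genes depended more on the settings. With total counts, 19.3% of genes were at least 2-fold lower on HFD in WT and 41.7% did not overlap. With no filter, 19.9% were at least 2-fold lower and 18.5% did not overlap on HFD in KO, 19.0% and 17.8% in WT, 11.2% were at least 2-fold lower in KO on HFD, and 14.0% were at least 2-fold higher and 10.1% did not overlap on ND. Without a filter more low-count rows enter these shares. The gene's own depth limits nothing here, as its lowest count was 14340. The number of opposite rows, 29, was 58 without KO HFD replicate 1, an alternative chosen after seeing the data.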
